A study of Mus musculus with 16 samples.

Results

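The interferon regulatory factors are transcription factors, and chromatin accessibility was described here at the genes of 7 of them in mouse bone marrow: Irf1, Irf2, Irf4, Irf5, Irf7, Irf8 and Irf9. Every accessible region called in at least 2 of 16 libraries was taken if it overlapped the RefSeq body of 1 of these genes, extended by 10000 bp on both sides. This gave 47 of the 83972 regions of the series, and 17 of the 24955 regions that were called in all 16 libraries. The assay was ATAC-seq, which marks open chromatin by letting the transposase Tn5 insert adapters there. The cells came from male C57Bl/6 mice, from bone marrow from which cells bearing CD3, CD4, B220, Ter119 or Gr1 had been removed. The submitters label them haematopoietic stem cells.

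There were 4 groups of 4 libraries. The diabetic mice had received streptozotocin, which destroys insulin-producing cells, and the control mice are labelled non-diabetic. Each mouse sample gave a pair of portions. Cells of the baseline portion were lysed directly, while the other portion was kept in culture for 6 h with 10 ng/mL interleukin-1β (IL-1β). No portion was cultured without IL-1β, so the effects of cytokine and culture cannot be told apart, and "after IL-1β" below covers both. Each library came from 50000 cells.

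Interferon regulatory factors bind DNA through a conserved domain that reads GAAA-containing motifs, and they control the transcription of interferons and of genes that respond to interferons. Irf1 is an activator induced by interferon-γ, and Irf2 competes with it for the same motifs. Irf9 is the DNA-binding subunit of a complex that forms after type I interferon receptors signal. Irf5 and Irf7 are activated downstream of Toll-like receptors and the adaptor MyD88: Irf7 amplifies type I interferon production, and Irf5 drives inflammatory cytokine genes in myeloid cells. Irf4 and Irf8 act together with PU.1, Irf8 in monocyte and dendritic cell development and Irf4 mainly in lymphocytes.

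The sequences below span 250 bp before to 50 bp after a RefSeq transcription start (build GRCm38.p6, identical to mm10 on the main chromosomes). They are shown because the start-site regions of Irf5 and Irf7 moved most after IL-1β, and because the windows of Irf1, Irf2 and Irf8 held matches to the motifs searched. Each reads 5′ to 3′ on the strand of the gene, and capitals mark motif matches. The windows lie at chr6:29526375-29526674 on the plus strand for Irf5, chr7:141266375-141266674 on the minus strand for Irf7, chr11:53769764-53770063 on the plus strand for Irf1, chr8:46739495-46739794 on the plus strand for Irf2 and chr8:120736108-120736407 on the plus strand for Irf8.
Irf5: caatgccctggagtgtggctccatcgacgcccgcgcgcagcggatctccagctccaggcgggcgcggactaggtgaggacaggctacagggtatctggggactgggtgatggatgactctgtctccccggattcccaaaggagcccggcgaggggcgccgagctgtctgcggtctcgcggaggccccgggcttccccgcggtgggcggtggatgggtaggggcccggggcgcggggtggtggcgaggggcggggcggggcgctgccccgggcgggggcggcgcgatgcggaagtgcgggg
Irf7: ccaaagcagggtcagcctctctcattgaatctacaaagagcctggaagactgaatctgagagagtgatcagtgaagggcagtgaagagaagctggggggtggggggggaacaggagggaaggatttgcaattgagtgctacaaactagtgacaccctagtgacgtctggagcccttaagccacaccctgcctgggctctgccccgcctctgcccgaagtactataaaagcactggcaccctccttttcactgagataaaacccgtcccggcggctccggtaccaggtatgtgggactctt
Irf1: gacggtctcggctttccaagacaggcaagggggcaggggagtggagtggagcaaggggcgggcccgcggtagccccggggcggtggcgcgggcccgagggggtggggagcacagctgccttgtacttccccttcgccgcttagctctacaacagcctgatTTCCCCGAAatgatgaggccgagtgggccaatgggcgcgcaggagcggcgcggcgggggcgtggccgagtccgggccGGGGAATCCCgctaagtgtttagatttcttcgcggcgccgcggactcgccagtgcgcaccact
Irf2: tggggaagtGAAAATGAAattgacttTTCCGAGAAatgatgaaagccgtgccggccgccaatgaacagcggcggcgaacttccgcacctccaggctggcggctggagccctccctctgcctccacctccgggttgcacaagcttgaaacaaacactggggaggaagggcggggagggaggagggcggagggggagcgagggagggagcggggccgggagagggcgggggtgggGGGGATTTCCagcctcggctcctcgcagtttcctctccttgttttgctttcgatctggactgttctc
Irf8: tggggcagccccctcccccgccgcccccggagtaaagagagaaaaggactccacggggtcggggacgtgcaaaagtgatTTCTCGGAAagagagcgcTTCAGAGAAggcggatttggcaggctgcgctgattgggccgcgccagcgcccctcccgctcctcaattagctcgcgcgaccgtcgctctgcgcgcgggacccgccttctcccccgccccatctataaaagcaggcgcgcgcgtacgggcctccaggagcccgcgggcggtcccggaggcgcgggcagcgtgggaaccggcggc

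Of 5 motifs searched on both strands, 3 occurred in these windows. The Irf1 window held an interferon-γ activation site of the form TTCNNNGAA at -90 bp (TTCCCCGAA) and an NF-κB motif at -13 bp (GGGGAATCCC), both counted from the start. The Irf2 window held an IRF-type match, GAAANNGAA, at -241 bp (GAAAATGAA). It also held a TTCNNNGAA match at -224 bp (TTCCGAGAA) and an NF-κB motif at -17 bp (GGGGATTTCC). The Irf8 window held TTCNNNGAA matches at -171 bp (TTCTCGGAA) and at -153 bp (TTCAGAGAA). The printed windows of Irf5 and Irf7, and the windows of Irf4 and Irf9, held none of these letters, nor the AP-1 motif TGANTCA or the ETS core GAGGAAGT. No searched motif overlapped another in these matches. Of all 32851 RefSeq promoter windows of this length, 8.56% held the IRF-type motif, 8.30% TTCNNNGAA, 4.51% the NF-κB motif, 7.81% the AP-1 motif and 3.20% the ETS core. A match is a description of letters only. The windows of Irf5 and Irf7 differed in composition: that of Irf5 had 74.7% G and C and 35 CpG, and that of Irf7 had 55.0% and 7 CpG, against medians of 52.7% and 7 CpG over all windows.

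Each library had its own list of peaks, 37543 to 72525 of them, and its depth showed only through the reads at summits. The median over shared regions was 27 to 58 reads, and the lowest background was 0.856 to 1.71 reads. In control mice 1 to 4 the median was 50, 47, 58 and 40 at baseline and 48, 29, 33 and 38 after IL-1β. In diabetic mice 1 to 4 the median was 39, 42, 49 and 27 at baseline and 37, 42, 32 and 31 after IL-1β. Most mice thus had a lower median after IL-1β. Control IL-1β replicate 2 had the fewest peaks, and diabetic baseline replicate 4 the lowest background. Defining genes of several cell types lay near regions called in every library: 9 of 10 stem and progenitor genes, 5 of 6 neutrophil, 4 of 4 monocyte, 5 of 5 dendritic, 4 of 5 B cell, 4 of 4 erythroid and 1 of 5 T and NK cell genes. The depletion through B220, Ter119 and Gr1 is directed at B cells, erythroid cells and neutrophils. Whether the regions near their genes were open in stem and progenitor cells or in remaining committed cells was not tested. In bulk libraries, a region that opens and a larger share of cells that already hold it open cannot be told apart.

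All 7 genes had a region over a transcription start that was called in 16 of 16 libraries. Over all 17492 genes with a RefSeq start, 48.6% had one. Of the 47 regions, 24 lay in the gene body away from the start, 6 upstream and 10 downstream. The start sites aside, 6 of the gene body regions, 2 upstream and 2 downstream were called in all libraries. In total 36.2% of the 47 regions were called in all 16 libraries, against 29.7% of all regions. Another 10 were called in 12 to 15 libraries and 20 in 2 to 11. At least 12 libraries called 27 of the 47 regions, and 40976 of all 83972 regions. Irf2, by far the longest of these genes at 107714 bp, had 21 regions, and 7 of them were shared by all libraries. Irf7, 3317 bp long, had 3 regions with 2 shared. Irf1 had 5 with 2 shared, Irf5 5 with 2, Irf9 4 with 2, Irf4 4 with 1 and Irf8 5 with 1. Regions are numbered here by coordinate within a gene. Which of them lie in exons, introns or UTRs was not analysed here.

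**Figure D1:**
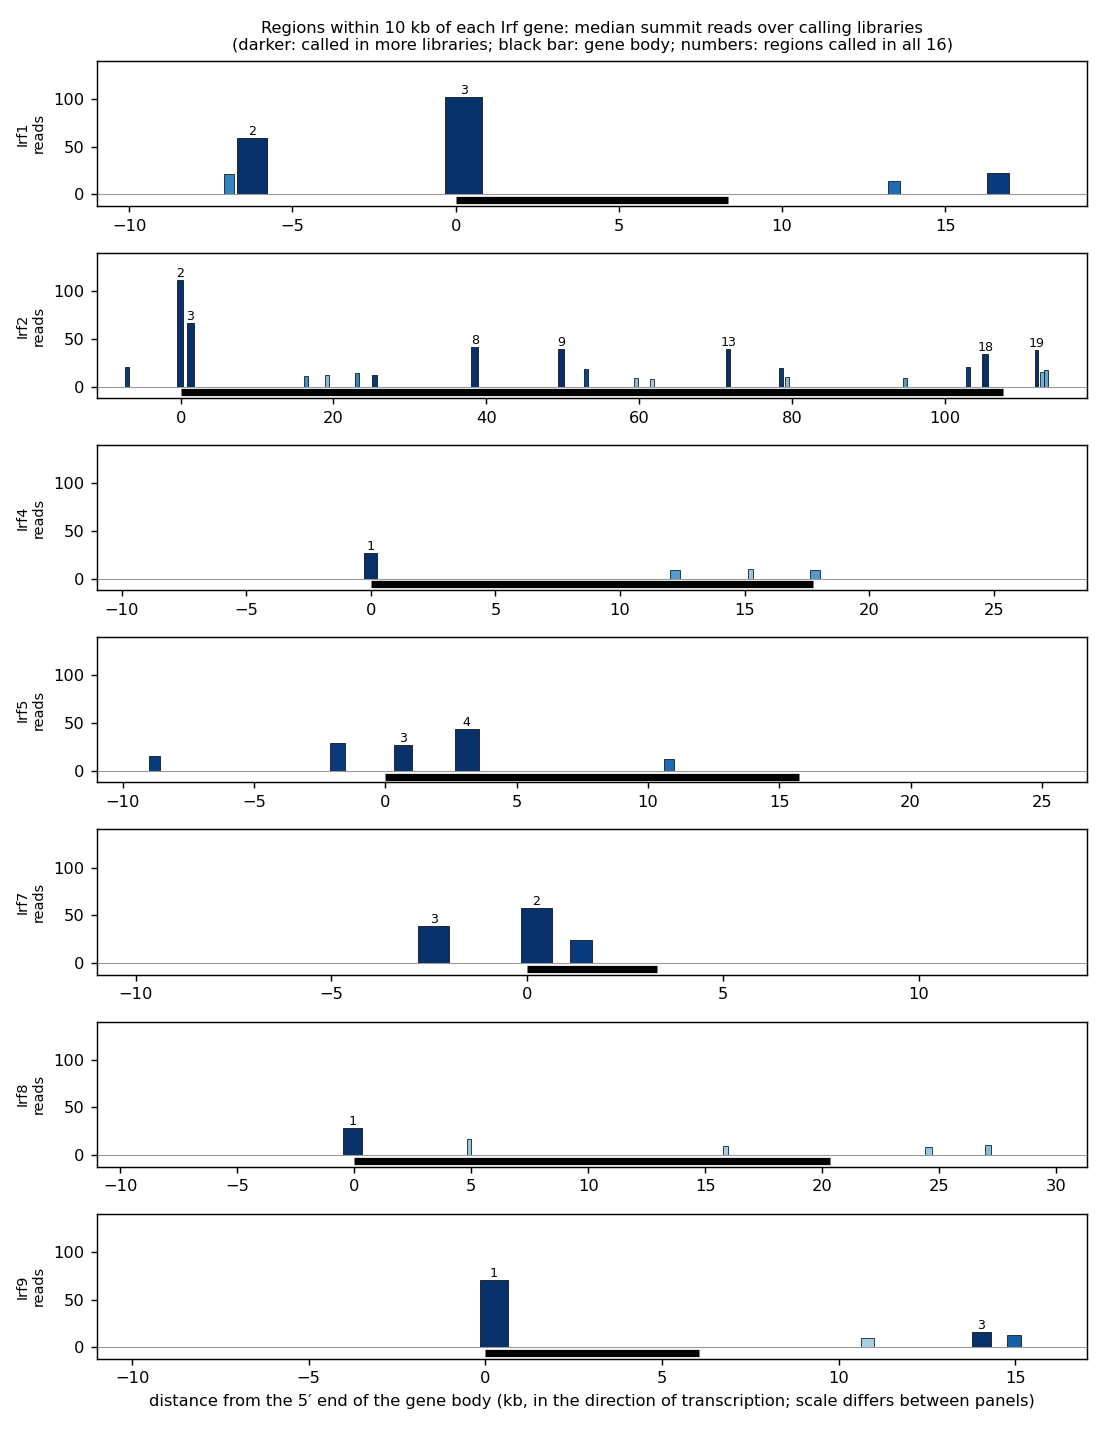
Regions around the 7 genes, with distance from the 5′ end of the gene body in kb on the x axis (scale differs between panels) and the median reads at the highest summit over the libraries that called the region on the y axis; darker bars were called in more libraries, the black bar is the gene body and numbers mark regions called in all 16 libraries. The start-site regions of Irf2 and Irf1 reach medians of 112 and 102 reads, while those of Irf4, Irf5 and Irf8 have 27, 27.5 and 28.5.

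Accessibility at the start sites was compared as scaled reads, the reads at the highest summit after all libraries were set to equal medians over the shared regions. This is a level at 1 position and does not depend on the width of the region. Over 16 libraries the Irf2 start site was highest at 108 ± 10.3 scaled reads (SD, n = 16), followed by Irf1 at 98.8 ± 9.57, Irf9 at 70.9 ± 8.61 and Irf7 at 64.2 ± 16.2. Irf5 at 29.6 ± 8.37, Irf4 at 29.0 ± 4.09 and Irf8 at 28.9 ± 6.36 formed a low group in scaled reads. Among all shared regions these levels stood at percentile 93.6 for Irf2, 90.4 for Irf1, 78.2 for Irf9, 73.1 for Irf7 and from 33.9 to 35.1 for the low group.

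The order of neighbours held for some pairs and not for others. Irf1 exceeded Irf9 in 16 of 16 libraries, and Irf7 exceeded Irf5 in 16 of 16. Irf2 exceeded Irf1 in 14 of 16. Irf4 exceeded Irf8 in 5 of 16 libraries, against the order of their means, 29.0 and 28.9. Those means were closer than either SD, 4.09 and 6.36. For the pairs that involve Irf7 and Irf5, the order in scaled reads turned with stimulation. Irf9 exceeded Irf7 in 1 of 8 baseline libraries and in 8 of 8 after IL-1β. Irf5 exceeded Irf4 in 0 of 8 baseline libraries and in 8 of 8 after IL-1β. In deposited fold neither order turned. The lowest Irf9 fold, 11.4, lay above the highest Irf7 fold, 10.6, and the lowest Irf4 fold, 6.67, above the highest Irf5 fold, 5.39.

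**Figure D2:**
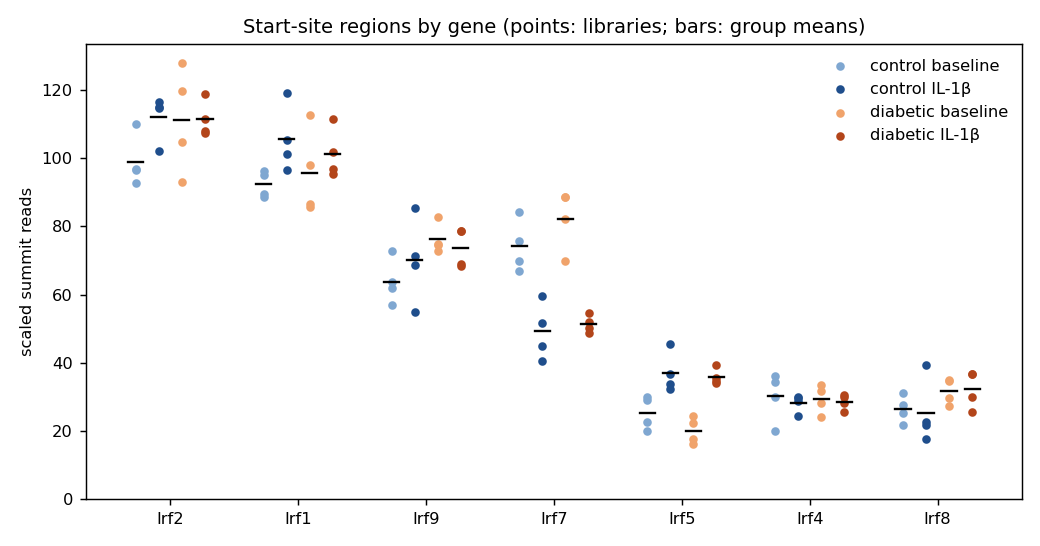
Scaled reads at the highest summit of the start-site region of each gene (y axis), with 1 point per library, 4 libraries per group and bars at the group means. The IL-1β libraries of Irf7 sit between 40.4 and 59.6, below all its baseline libraries, and those of Irf5 between 32.1 and 45.5, above all its baseline libraries.

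The question of what IL-1β changes was asked first over both phenotypes. In limma, with Benjamini-Hochberg adjustment over all 24955 shared regions at 0.05, 3 of the 17 regions rose (the Irf5 start site, a region inside Irf5 and a region inside Irf2) and 2 fell (the Irf7 start site and a region upstream of Irf7). Over all shared regions 9.82% passed in either direction, 6.42% rising and 3.4% falling. The median log2 change was 0.03 over the 17 and 0.03 over all shared regions, and 9 of the 17 had a positive change. These shares depend on the scaling. When libraries were scaled by their background instead, the median over all shared regions became -0.24 in place of 0.03, and none of the 17 rose, while 3 fell, among them a further Irf2 region; over all regions 203 (0.813%) then rose and 2343 (9.39%) fell, against 1603 and 848. Without diabetic baseline replicate 4, 2775 of all regions rose and 1473 fell, and of the 17 regions 3 rose and 3 fell.

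Irf5 had the largest rise. Its start-site region (chr6:29526447-29527129) overlapped the start at 29526625, inside the RefSeq gene body of 29526130 to 29541869, and its summit lay a median of 56.5 bp after that start. In control mice 1 to 4 it held 29.0, 20.05, 29.8 and 22.6 scaled reads at baseline and 36.8, 33.8, 32.1 and 45.5 after IL-1β. In diabetic mice 1 to 4 it held 22.1, 24.3, 17.6 and 15.99 at baseline and 34.0, 34.6, 39.3 and 35.5 after IL-1β. Every IL-1β library was above every baseline library, and the level was higher in 8 of 8 mice. The groups were 22.7 ± 4.94 and 36.4 ± 4.23 (SD, n = 8 each). The log2 change was 0.71 (SE 0.13, adjusted p 0.000805, limma). It was 0.55 in control mice (adjusted p 0.12) and 0.86 in diabetic mice (adjusted p 0.011), where it passed.

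A region inside the gene, Irf5 region 4 (chr6:29528771-29529688), had its summit a median of 2580 bp after the start. It held 43.2, 25.9, 33.2 and 36.3 scaled reads in control mice at baseline and 53.2, 58.2, 55.9 and 56.8 after IL-1β. In diabetic mice it held 35.2, 36.5, 35.2 and 29.1 at baseline and 45.6, 41.1, 46.6 and 59.5 after IL-1β. The groups did not overlap within either phenotype, but across phenotypes 1 control baseline library, at 43.2, lay above 1 diabetic IL-1β library, at 41.1. On the log2 scale the change was 0.61 (SE 0.11, adjusted p 0.000507, limma; higher in 8 of 8 mice), with 0.72 in control mice (adjusted p 0.0091) and 0.50 in diabetic mice (adjusted p 0.082). Leaving out control baseline replicate 2 took the change in control mice to 0.59 with an adjusted p of 0.053.

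The other regions near Irf5 were not called in every library. Region 2, with its median summit at -2296 bp, was called in 15 of 16 libraries, and in a fit of regions called in at least 12 libraries its log2 change was 0.40 (adjusted p 0.084, limma). Region 1, with its summit at -9291 bp, had 0.32 (adjusted p 0.35). Region 5, in the gene, was called in 6 of 8 IL-1β and 5 of 8 baseline libraries. Changes of this size were not particular to Irf5 in the fit of regions called in at least 12 libraries. Irf2 regions 14 and 17 had 0.40 (adjusted p 0.25, limma) and 0.38 (adjusted p 0.11). Irf2 regions 1, 7 and 10 had 0.05, -0.20 and 0.22, Irf1 region 5 had -0.08 and Irf9 region 4 had 0.26, none of which passed.

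Beside the change at Irf5, marker genes of cell types were read in the same fit. Of the 8 shared regions near the monocyte genes Csf1r, Ccr2, Ly6c2 and F13a1, 2 rose and 0 fell, where 6.42% and 3.4% of all shared regions did. Their median log2 change was 0.32, and under background scaling 0.05, where that of all shared regions was -0.24. Their summed scaled reads were 166 to 230 in baseline libraries and 224 to 266 after IL-1β. For the other lists the medians were 0.12 (erythroid, 9 regions), 0.07 (neutrophil, 13), 0.04 (dendritic, 14), 0.04 (T and NK cell, 1), 0.01 (B cell, 8), -0.05 (stem and progenitor, 12) and -0.15 (surface genes used for the depletion, 6, of which 5 near Ptprc, which most leukocytes express). In these lists 1 dendritic and 1 B cell region rose, and 1 neutrophil region and 1 region of the depleted surface genes fell. The summed scaled reads of the depleted surface genes were 275 to 327 in baseline libraries and 232 to 289 after IL-1β. The part of these cells in the changes at Irf5 and Irf7 was not tested.

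Irf7 had the largest fall. Its start-site region (chr7:141265873-141266653) had its median summit at -50.5 bp from the start at 141266424, in a gene body of 141263183 to 141266499. In control mice it held 69.9, 84.4, 67.0 and 75.6 scaled reads at baseline and 45.0, 59.6, 40.4 and 51.7 after IL-1β. Diabetic mice had 88.6, 82.2, 69.7 and 88.7 at baseline and 52.0, 48.6, 50.3 and 54.5 after IL-1β. All 8 IL-1β libraries were below all 8 baseline libraries. The groups were 78.3 ± 8.83 and 50.2 ± 5.81 (SD, n = 8 each). The log2 change was -0.64 (SE 0.09, adjusted p 2.51e-05, limma; lower in 8 of 8 mice). It passed in both phenotypes alone, with -0.60 in control mice (adjusted p 0.0059) and -0.68 in diabetic mice (adjusted p 0.0029).

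Upstream, Irf7 region 3 (chr7:141268491-141269278) had its median summit at -2407.5 bp and shared 199 bp with the body of Cdhr5, a cadherin gene, so it belongs to Irf7 by distance only. It held 49.5, 45.9, 48.1 and 48.1 scaled reads in control mice at baseline and 30.3, 37.9, 39.3 and 33.1 after IL-1β. The diabetic values were 46.3, 43.9, 44.9 and 32.0 at baseline and 32.9, 38.3, 29.4 and 27.9 after IL-1β. The control groups did not overlap, whereas 1 diabetic baseline library lay among the IL-1β libraries. Its log2 change was -0.41 (SE 0.11, adjusted p 0.012, limma; lower in 8 of 8 mice), with -0.45 in control mice (adjusted p 0.11) and -0.37 in diabetic mice (adjusted p 0.22). When reads were summed over all summits of the region, the change was -0.25 with an adjusted p of 0.42. The third region, inside Irf7, was called in 15 libraries and had -0.27 (adjusted p 0.27) in the fit of regions called in at least 12 libraries.

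Of the 17 regions, 1 was higher and 1 lower without any overlap between the 8 IL-1β and the 8 baseline libraries, the start sites of Irf5 and Irf7. Over all shared regions 1.58% were higher in this way and 0.645% lower. Likewise 2 of the 17 were higher in 8 of 8 mice and 2 lower, against 6.66% and 3.53% of all shared regions. Between the groups of 4 in control mice, 3 of the 17 did not overlap and were higher after IL-1β and 2 were lower, against 7.05% and 5.48% of all. In diabetic mice 2 were higher and 2 lower, against 4.86% and 2.41%.

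**Figure D3:**
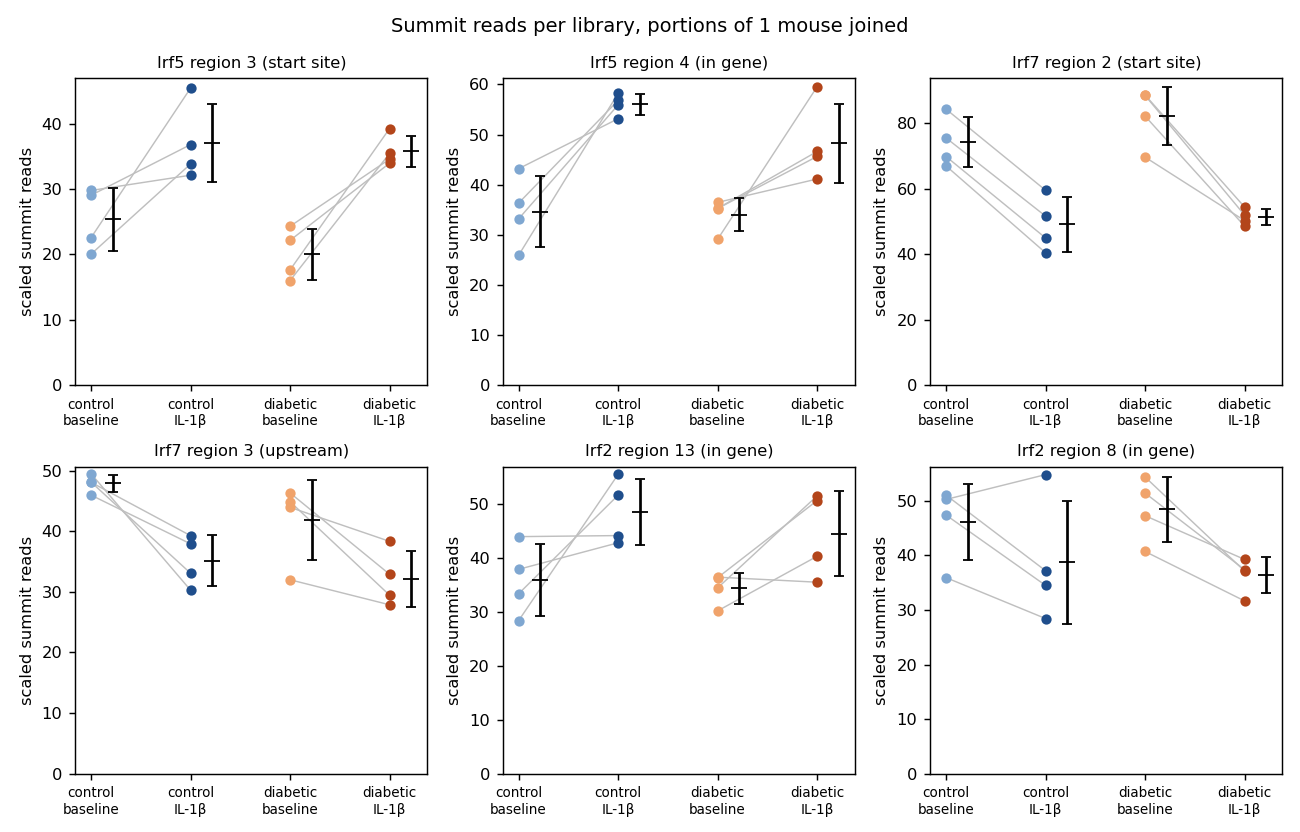
Scaled reads at the highest summit (y axis, from 0) of 6 regions by group, with grey lines joining the 2 portions of a mouse sample and black bars at the mean and SD of 4 libraries. At the Irf5 start site all IL-1β points lie above the baseline points, and at the Irf7 start site all lie below, while the points of both Irf2 regions overlap.

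Of the 7 shared Irf2 regions 1 passed, region 13 inside the gene. Region 13 (chr8:46811213-46811679), with its summit 71737.5 bp after the start, had the highest deposited fold enrichment of any region near these genes, up to 18.8. It held 44.0, 28.4, 37.9 and 33.4 scaled reads in control mice at baseline and 44.2, 55.5, 42.8 and 51.7 after IL-1β. In diabetic mice it held 30.2, 36.5, 34.4 and 36.3 at baseline and 40.3, 35.5, 51.5 and 50.7 after IL-1β. The groups overlapped, and the level was higher in 7 of 8 mice. The change was, on the log2 scale, 0.40 (SE 0.11, adjusted p 0.021, limma), with 0.44 in control and 0.36 in diabetic mice, neither of which passed alone (adjusted p 0.15 and 0.28). The call was lost in 4 of 16 fits that left out 1 library: adjusted p was 0.057 without diabetic IL-1β replicate 3, 0.052 without diabetic IL-1β replicate 4, 0.056 without control baseline replicate 2 and 0.051 without control IL-1β replicate 2.

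Region 8 of Irf2 (chr8:46777816-46778637), 38548.5 bp after the start, had values in the other direction. It held 50.2, 35.9, 47.4 and 51.0 scaled reads in control mice at baseline and 54.8, 28.4, 34.5 and 37.2 after IL-1β. Diabetic libraries held 54.4, 51.4, 47.3 and 40.7 at baseline and 37.1, 37.4, 39.3 and 31.7 after IL-1β. The diabetic groups did not overlap and the control groups did. The log2 change was -0.35 (adjusted p 0.071, limma), which did not pass, and 7 of 8 mice had a lower level after IL-1β. With the mouse as a block the adjusted p was 0.013 (limma), which passes. With background scaling the change was -0.62 (adjusted p 0.014, limma), where the median over all shared regions was -0.24. With the deposited fold it was -0.23 (adjusted p 0.17, limma), which did not pass. Region 8 passed in 2 of 8 alternative fits and in 3 of 16 fits that left out 1 library.

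The Irf2 start site (chr8:46739292-46740017) is shared with the start of Gm16675, and its median summit lay at -131.5 bp from the start of Irf2. In control mice it held 96.6, 96.9, 92.7 and 109.9 scaled reads at baseline and 102.2, 115.1, 116.6 and 114.7 after IL-1β. In diabetic mice the values were 119.8, 104.7, 92.9 and 127.9 at baseline and 118.8, 107.5, 108.0 and 111.4 after IL-1β. The groups overlapped, and the log2 change was 0.10 (adjusted p 0.46). The other shared Irf2 regions, 3, 9, 18 and 19, had changes of 0.12, 0.08, -0.07 and -0.04, none of which passed.

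The remaining start sites gave changes that did not pass. At Irf1 (chr11:53769685-53770835, over both RefSeq starts of the gene) control mice held 89.5, 95.2, 88.7 and 96.2 scaled reads at baseline and 96.5, 119.1, 101.1 and 105.4 after IL-1β, and the groups did not overlap. Diabetic mice held 112.7, 98.1, 86.5 and 85.8 at baseline and 101.9, 95.3, 96.9 and 111.4 after IL-1β, which overlapped. Its log2 change was 0.14 (95% interval -0.01 to 0.29, adjusted p 0.26, limma), and region 2 of Irf1, with its summit at -6019.5 bp, also had 0.14 (adjusted p 0.34).

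The start site of Irf9 (chr14:55603828-55604629) held 63.6, 72.7, 56.9 and 61.8 scaled reads in control mice at baseline and 68.7, 85.3, 54.7 and 71.3 after IL-1β. In diabetic mice it held 74.5, 74.8, 72.9 and 82.9 at baseline and 69.0, 68.2, 78.5 and 78.5 after IL-1β. The groups overlapped and the log2 change was 0.03 (interval -0.14 to 0.21). The other shared region of Irf9, region 3, covers the start of Rec8, a meiotic cohesin gene, and stood at percentile 5.18 of shared regions. It held 9.42 to 26.2 scaled reads at baseline (median 16.5) and 12.2 to 22.4 after IL-1β (median 14.4), which overlapped, with a change of -0.06 (adjusted p 0.89).

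At the lineage factors Irf8 and Irf4 the values before and after IL-1β overlapped as well. The Irf8 start site (chr8:120735891-120736709) held 25.1, 21.7, 31.1 and 27.5 scaled reads in control mice at baseline and 39.3, 17.6, 22.6 and 21.7 after IL-1β. For diabetic mice they were 27.2, 34.6, 29.6 and 34.9 at baseline and 25.5, 29.9, 36.8 and 36.7 after IL-1β. The log2 change was -0.05 (interval -0.36 to 0.26). The Irf4 start site (chr13:30748975-30749495) held 20.05 to 36.1 scaled reads at baseline, with a median of 30.8, and 24.4 to 30.4 after IL-1β, with a median of 29.2. Its log2 change was -0.05 (interval -0.32 to 0.22).

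**Figure D4:**
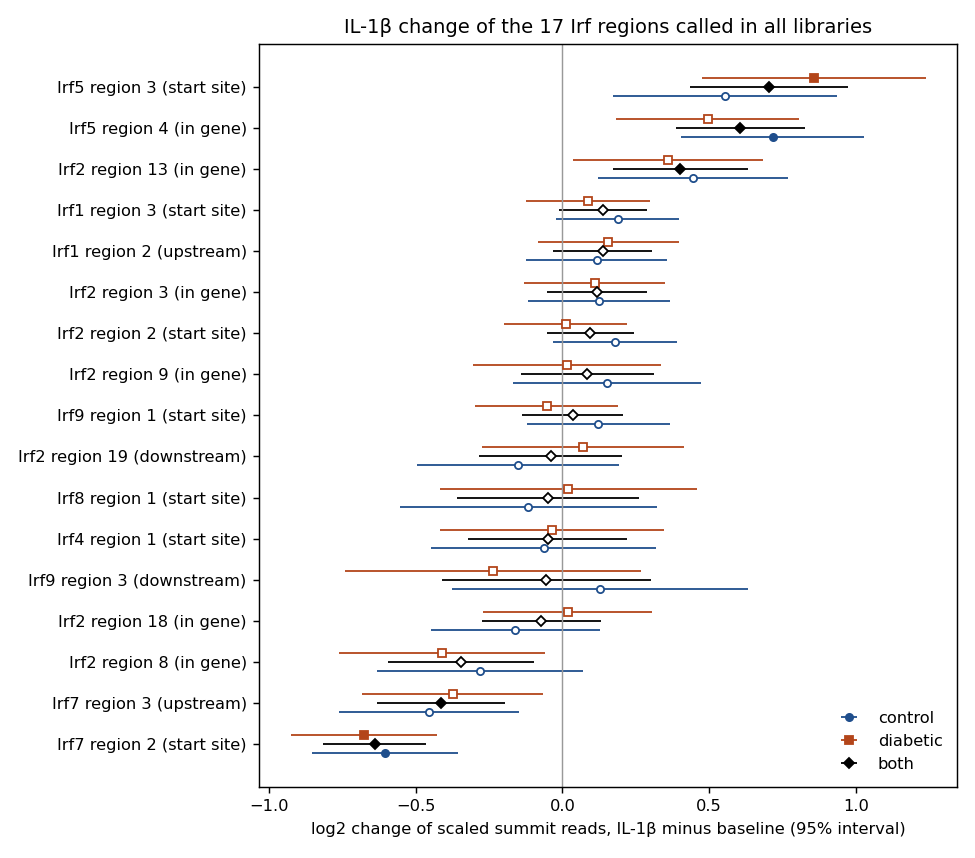
Log2 change of scaled reads after IL-1β, on the x axis, for the 17 regions called in all libraries, in control mice (circles), diabetic mice (squares) and both (diamonds), with 95% intervals; filled symbols passed the adjusted threshold. The regions run from -0.64 at the Irf7 start site to 0.71 at the Irf5 start site, and the control and diabetic intervals overlap at every region.

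The deposited fold enrichment gave a smaller contrast than the reads. It divides the summit by the local background of the same library, and that background moved in the same direction as the summit at both genes. The background was nearly the same at the Irf7 start site and at Irf7 region 3, 9.81 and 9.71 reads at baseline. Whether this background covers a stretch that holds the peaks themselves was not tested. Relative to the lowest background of a library, the local background at the Irf7 start site was 7.72 times at baseline and 4.91 times after IL-1β, and at Irf7 region 3 it was 7.64 and 4.85 times. At the Irf5 start site it was 4.43 and 5.88 times, and at Irf5 region 4 it was 3.97 and 5.46 times. At Irf2 region 13 it was 1.47 and 1.61 times. The deposited fold of the Irf7 start site was 7.92 ± 0.88, 6.56 ± 0.94, 8.64 ± 1.41 and 6.70 ± 0.49 (SD, n = 4 each) in control baseline, control IL-1β, diabetic baseline and diabetic IL-1β libraries. That of the Irf5 start site was 4.46 ± 0.39, 4.39 ± 0.73, 3.55 ± 0.48 and 4.00 ± 0.32 in the same order.

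For limma the log2 deposited fold was also scaled to equal medians over the shared regions. In this fit none of the 17 regions passed, while 978 of all shared regions rose (3.92%) and 551 fell (2.21%). The log2 changes were then -0.18 at the Irf7 start site (adjusted p 0.35), 0.05 at Irf7 region 3, 0.21 at the Irf5 start site (adjusted p 0.18), 0.08 at Irf5 region 4 and 0.19 at Irf2 region 13 (adjusted p 0.17). Before this scaling the mean fold at Irf7 region 3 went from 4.81 at baseline to 4.55 after IL-1β. That of Irf5 region 4 went from 6.55 to 6.33. The direction at both regions thus depended on the scaling. The rises and falls given above are changes in reads at the summit, and none of them passed in this fit of the fold.

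The second question was whether diabetic and control mice differ. Within control mice alone, 1 of the 17 regions rose and 1 fell, against 2.75% of all shared regions in either direction, 1.78% rising and 0.97% falling. Within diabetic mice 1 rose and 1 fell, against 2.83%, of which 2.19% rising and 0.641% falling. Without diabetic baseline replicate 4, 2 rose and 2 fell in control mice and 1 rose and 2 fell in diabetic mice, and without control baseline replicate 2 none rose in control mice. The difference of the IL-1β changes passed at 0 of the 17 regions and at 0 of 24955 in limma (0%). At an unadjusted p under 0.05 it was 0 of the 17 and 416 of all. The difference, diabetic minus control, was 0.30 at the Irf5 start site (interval -0.24 to 0.84), -0.22 at Irf5 region 4 (-0.66 to 0.22), -0.07 at the Irf7 start site (-0.42 to 0.28), 0.08 at Irf7 region 3 (-0.35 to 0.52) and -0.09 at Irf2 region 13 (-0.54 to 0.37). A different response of Irf5 or Irf7 in diabetic and control mice was thus not detectable with 4 mice per phenotype.

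The levels of diabetic and control mice also passed at 0 of 17 regions in limma, at baseline and after IL-1β, and at 0 of 24955 in both comparisons. At an unadjusted p under 0.05 there were 3 of the 17 at baseline, against 2943 of all regions, and 0 of the 17 after IL-1β, against 1086. The 3 were Irf9 region 3 at 0.59 (diabetic minus control, log2), the Irf9 start site at 0.26 and Irf2 region 19 at -0.38, each with an adjusted p of 0.42. At the Irf5 start site the baseline difference was -0.34 (interval -0.72 to 0.04), and at the Irf7 start site it was 0.15 (interval -0.10 to 0.40).

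The calls themselves were compared next. No region passed Fisher's exact test of calls in IL-1β against baseline libraries after adjustment, 0 of 47 and 0 of 83972 (0%). At an unadjusted p under 0.05 there were 0 of 47 and, over all, 921 regions with more (1.1%) and 2545 with fewer calls after IL-1β (3.03%). Between 23 and 40 of the 47 regions were called per library, against 34860 to 67481 of all 83972 regions. The library with 23 was also the one with 34860, control IL-1β replicate 2.

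A difference of at least 4 libraries of 8 occurred at 2 regions, both inside Irf2. Region 4 (chr8:46755967-46756258) was called in 2 IL-1β and 6 baseline libraries, and over all regions 7.78% had at least 4 fewer calls after IL-1β. It was called in 3 control baseline, 0 control IL-1β, 3 diabetic baseline and 2 diabetic IL-1β libraries, with 7 to 16 reads where called. Region 15 (chr8:46819016-46819274) was called in 4 diabetic and 0 control libraries with 9 to 11 reads, and over all regions 0.843% had at least 4 more calls in diabetic mice. None of the 47 had at least 4 more calls after IL-1β, as 1.98% of all regions had, or at least 4 fewer in diabetic mice, as 1.94% had.

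**Figure D5:**
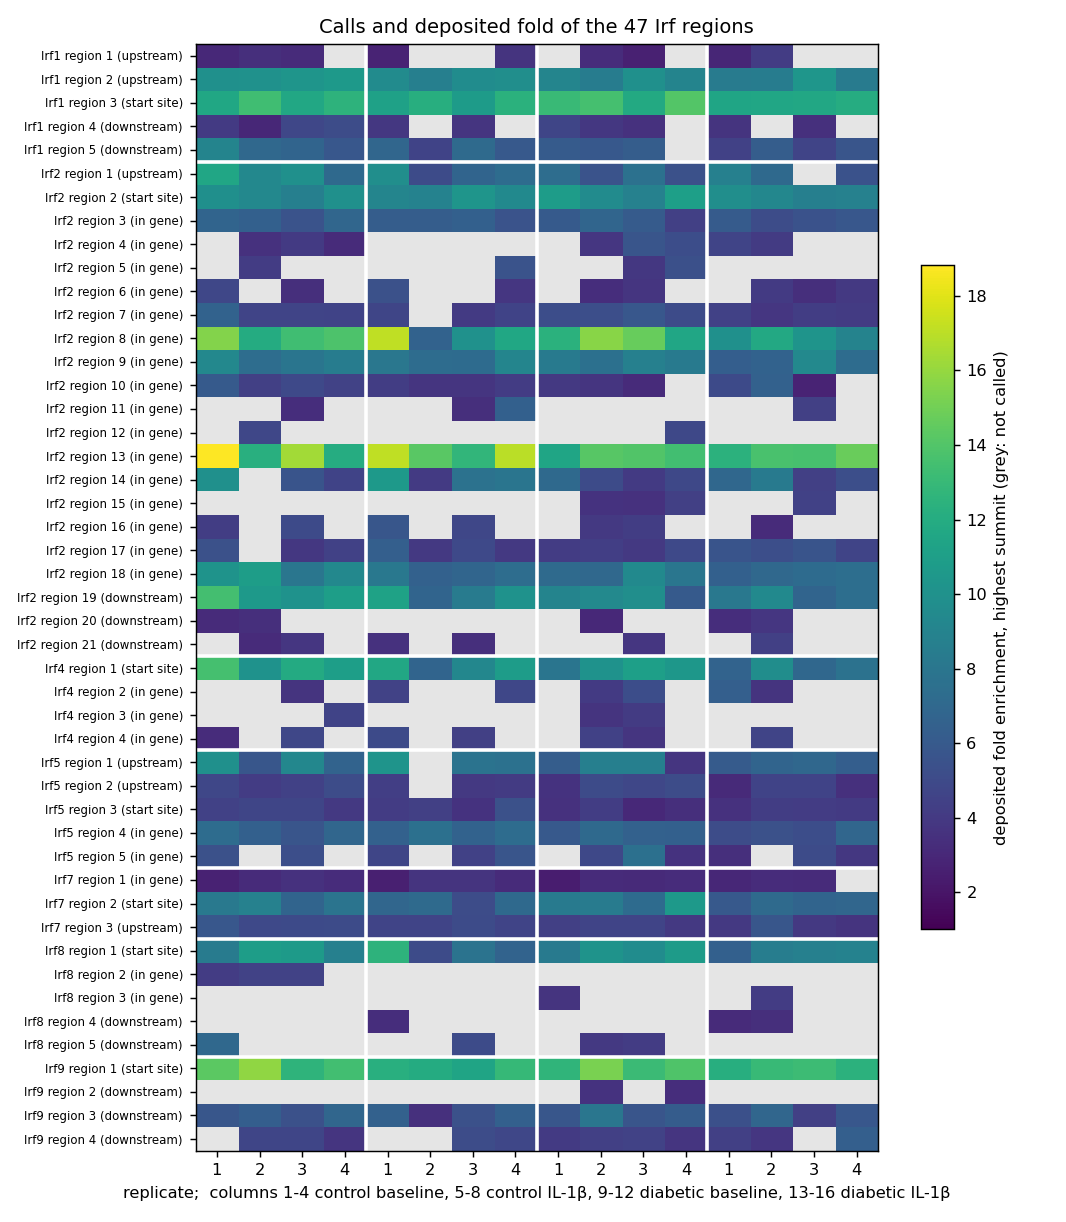
The 47 regions as rows and the 16 libraries as columns (4 per group), coloured by the deposited fold enrichment of the highest summit, with grey where the region was not called. Rows of the 17 shared regions are filled throughout, and Irf2 region 13 reaches the highest fold, 18.8.

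Other regions of the genome followed the start sites of Irf5 and Irf7 across the 16 libraries. Among shared regions on other chromosomes, the Pearson correlation of log2 scaled reads with the Irf5 start site was highest for a region in Pfkfb3, a glycolytic regulator (r 0.92), 1 located 156311 bp from Ctnnb1 (0.92) and 1 located 19230 bp from Lgals3 (0.92). With the Irf7 start site it was highest for regions in Cd53, a leukocyte tetraspanin (0.93), Malsu1 (0.92) and Ift172 (0.90). These points share the libraries and their scaling, and the values are a description.

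The pathway around these factors was read from 4 lists of genes, as shared regions within 10000 bp and against the 9.82% of all shared regions that passed over both phenotypes. A search at 15 sensor and adaptor genes, of which Tlr3 had no shared region, gave 33 regions. Of these, 3 rose and 2 fell, with a median log2 change of 0.02. Under background scaling 0 rose and 5 fell, where 0.813% of all shared regions rose and 9.39% fell. Of 4 regions at Traf3, which links receptors to interferon induction, 2 rose (0.35 and 0.21) and 1 fell (-0.34). At Tlr9, a receptor for DNA, 1 of 2 regions rose (0.41). At Tbk1, a kinase that activates Irf proteins, 1 of 3 regions fell (-0.53), and the others had 0.20 and -0.06, which did not pass.

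Of 29 regions at 12 genes of interferon receptors and Jak-Stat signalling, 4 rose and 0 fell, with a median of 0.06. At Ifnar2, a chain of the type I interferon receptor, 2 of 4 regions rose. The first (chr16:91398021-91398933) went from 35.0 ± 9.70 scaled reads at baseline to 61.4 ± 4.46 after IL-1β (SD, n = 8 each), which gave a log2 change of 0.85 (SE 0.13, adjusted p 9.7e-05, limma), and the second changed by 0.44. The single region at Ifngr2, a chain of the interferon-γ receptor, rose by 0.44, and 1 of 3 regions at the kinase gene Jak2 rose by 0.58. Under background scaling the counts of this list were 1 risen and 2 fallen.

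A search at 30 interferon-stimulated genes, some of which had no shared region, gave 43 regions. Of these, 5 rose and 3 fell, with a median of 0.05. At Trim25, a ubiquitin ligase of the RIG-I pathway, 3 of 6 regions rose (0.93, 0.49 and 0.38). At the chemokine gene Cxcl10, 1 of 2 regions rose (0.58), and a region near both Oasl1 and Oasl2 rose by 0.40. Both regions at Eif2ak2, the kinase that senses double-stranded RNA, fell (-0.69 and -0.43), as did 1 of 2 regions at Cmpk2 (-0.24). Under background scaling 1 rose and 4 fell.

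Of 47 regions at 18 partner and lineage factor genes, 4 rose and 0 fell, with a median of 0.05. They were 1 of 2 regions at Prdm1 (0.41), 1 of 7 at Zeb2 (0.39), 1 of 3 at Cebpe (0.34) and 1 of 3 at Spi1, which encodes PU.1 (0.29). Another Zeb2 region had -0.48 (adjusted p 0.056, limma) and the other Prdm1 region -0.14, neither of which passed. Under background scaling 0 rose and 4 fell in this list. With a mouse block, this list had 9 risen and 1 fallen, 7 and 1 in the receptor list, 6 and 4 in the interferon-stimulated list and 4 and 2 in the sensor list. Over all shared regions 2400 (9.62%) rose and 1294 (5.19%) fell with this block.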

How the data were processed

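The data are 16 ATAC-seq peak lists, 1 per library, deposited by the authors on mm10, with 50-bp single reads and fragments above 1200 bp removed, per the labels' protocols. The submitters' processing notes name MACS2 2.1.1 and Bowtie2 2.2.6, and also Trim Galore 1.8, DiffBind 2.4.8, edgeR and FastQC 0.11.3, without saying what each did. Read shifting for Tn5 and removal of duplicates are not given in the sources used here; both would change reads per summit. Each deposited line holds a score (10 times the −log10 q, cut to whole numbers, in at least 99.97% of lines per library), a fold enrichment (a ratio over the local background), a −log10 p and a −log10 q, all from the authors' peak caller. The lowest deposited −log10 q was 1.30.

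Peaks that overlapped or touched were merged into 102496 regions, and those called in at least 2 libraries were kept. Reads n and local background λ at each summit were recovered from the deposited fold, (n + 1) / (λ + 1), and the Poisson p, within 0.001 of the deposited −log10 p, for at least 99.9987% of summits per library. Log2 reads of the highest summit were scaled to equal medians over the shared regions and fitted in limma 3.58.1 (R 4.3.3; 4 group means, trended variance, two-sided), with adjustment over all 24955 shared regions at 0.05. Calls were compared with two-sided Fisher's exact tests in SciPy 1.17.1. The scripts were tested on simulated data. Intervals are 95%, and each phenotype had 4 mouse samples. The p-values of the main limma fit rest on the spread of all libraries as separate units, with variances trended over the shared regions. They do not account for libraries that came from the same mouse, which only the fit with a mouse block does.

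Genes and promoter windows came from RefSeq (GRCm38.p6), in which all 7 genes matched among 21900 protein-coding genes. Described one by one were start-site regions, shared regions past the threshold in any contrast, the region of each gene with the largest change and regions whose calls differed by at least 4 of 8 libraries; Irf2 region 8 was added after its values were seen. A further list of genes is not reported here. The members and gene lists were chosen with earlier results of these data known. The series design says that each mouse sample was divided, so equal numbers mark portions of 1 mouse in a phenotype. The portions' deviations from the means of their groups correlated by 0.42, 0.36, 0.01 and 0.07 in control mice and by 0.40, 0.19, -0.04 and 0.33 in diabetic mice. Equal numbers across phenotypes are different mice. Alternatives were background scaling, cyclic loess, regions called in at least 12 libraries, reads summed over summits, the deposited fold, peaks of −log10 q at least 5, merging at 50 bp overlap, a mouse block, gene bodies only and each library left out.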

Additional observations from a re-analysis of the deposited data

Results flagged for a closer look

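Of 68 groups of 4 libraries at the 17 shared regions, 3 had a lowest library farther from the others than Dixon's 95% limit allows, and chance gives about 1 in 20. At the start site of Irf2, control IL-1β replicate 1 had 102.2 scaled reads while the other 3 had 115 to 117. At Irf5 region 4, inside the gene, diabetic baseline replicate 4 had 29.1 scaled reads while the others had 35.2 to 36.5. At Irf7 region 3, upstream, the same library had 32.0 while the others had 43.9 to 46.3. Diabetic baseline replicate 4 also had the lowest background, 0.856 reads, and the lowest median over shared regions, 27 reads. Without it the log2 changes of Irf5 region 4 and Irf7 region 3 over both phenotypes still passed.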

How the results depend on the processing

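Of 363 recomputed values outside the fits that left out a library, 314 stayed the same. For a count of regions this means an equal or similar number, and for a change at 1 region the same direction and side of the threshold. Among the changes at single regions 221 stayed the same, 13 turned, 15 no longer passed and 2 newly passed. With background scaling 0 of the 17 regions rose over both phenotypes, in control mice or in diabetic mice, and 203 of all regions rose and 2343 fell; the changes turned at Irf1 regions 2 and 3 (-0.13 each), Irf2 regions 2, 3 and 9 (-0.17, -0.15 and -0.19) and Irf9 region 1 (-0.24). With the deposited fold, scaled to equal medians, 0 rose and 0 fell over both, in control and in diabetic mice, and 978 and 551 of all. Changes then turned at Irf7 region 3 (0.053 over both, 0.031 in control, 0.075 in diabetic mice), Irf5 region 4 (-0.084 in diabetic mice) and Irf9 region 1 (-0.017). Cyclic loess turned Irf9 region 1 (-0.0054). Summed summits left 1 fall over both and 0 rises in diabetic mice and turned Irf2 region 18 (0.11). Peaks of −log10 q at least 5 left 0 rises in diabetic mice, since the Irf5 start site was then no longer shared. Regions called in at least 12 libraries gave 2551 rises of all, with more regions tested. Gene bodies alone left 1 fall. With the mouse as replicate block 1294 of all regions fell, and among the 17 over both phenotypes Irf2 region 8 was gained (adjusted p 0.013, limma); no other call of the 17 changed. Leaving out 1 library gave, over both phenotypes, 2 to 3 rises and 2 to 3 falls of the 17 and 1243 to 2775 rises and 639 to 1473 falls of all; in control mice 0 to 2 and 1 to 2; in diabetic mice 1 and 1 to 2. The contrasts of phenotypes and the calls stayed at 0 in each. Ranges that crossed 0 were -0.11 to 0.020 at Irf2 region 19, -0.14 to 0.00081 at Irf4 region 1, -0.16 to 0.028 at Irf8 region 1, -0.016 to 0.091 at Irf9 region 1 and -0.14 to 0.024 at Irf9 region 3, none of which passed. The difference of phenotypes ranged from -0.19 to 0.021 at Irf2 region 13, from -0.16 to 0.026 at Irf7 region 2 and from -0.043 to 0.15 at Irf7 region 3. Except as stated, the cause was not tested. Depth limits regions of few reads: the 20 regions called in 2 to 11 libraries had no test on reads.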
